A study of Drosophila melanogaster with 20 samples.

Results

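The genes of the cytoplasmic ribosomal proteins were followed in heads of adult Drosophila melanogaster that lacked the neuronal RNA-binding protein FNE, its relative RBP9, or both. Members were the gene IDs of the count table whose FlyBase symbol begins with RpS or RpL followed by a digit or the letter P. Mitochondrial ribosomal proteins, whose symbols begin with mRp, were left out. The rule held 87 of the 17558 gene IDs. By symbol alone, 36 were assigned to the small subunit (RpS) and 51 to the large subunit (RpL). The symbols RpS10b, RpL27A, RpL31, RpL19 and RpS12 also match the rule but were not matched by ID, and they were not analysed here.

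Total RNA depleted of ribosomal RNA was sequenced from 4 genotypes with 5 libraries each, and the study asked which RNAs depend on FNE and RBP9. ΔfneΔrbp9 flies carried the alleles of both single mutants. In Δfne, females had Df(1)fneΔ over fneKOZ2 and males had 1 of these alleles, since fne is on the X chromosome. Δrbp9 flies had rbp9P2690 over the deficiency Df(2L)ED206, which also removes genes next to Rbp9. Wild type was the w1118 stock. All flies were untreated and their heads were taken on day 1 after eclosion, and the study's methods describe independent replicates of pooled heads with males and females in equal numbers. In such bulk samples, fewer cells of a type and less RNA per cell cannot be told apart.

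The ribosome is built from ribosomal RNA and a fixed set of proteins, most of which each particle holds in a single copy. Their genes are among the most highly transcribed of every cell, and their output is tied to growth. In flies, loss of 1 copy of many of them gives the Minute phenotype, with slow development and thin bristles. The ribosomal RNA is made, modified and packed with these proteins in the nucleolus by assembly factors that leave the particle before it translates. Several fly ribosomal protein genes have a second copy, which in many cases is known from the germline.

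The libraries held 10289950 to 25325636 counts. The targeted genes matched the labels in all 20 libraries. Rbp9 had 16.7 to 20.5 CPM in the libraries with rbp9 mutant alleles and 434 to 617 CPM in the others, where CPM (counts per 1e6) is the count of a gene over the library's total scaled by its TMM factor. For fne the ranges were 76.1 to 96.9 CPM with fne mutant alleles and 179 to 225 CPM in the others. Neuronal and photoreceptor markers, which define head tissue, were present in every library. The summed CPM of 5 neuronal markers was 2714 to 2801 in ΔfneΔrbp9, 2615 to 2910 in Δfne, 2478 to 2751 in Δrbp9 and 2567 to 2797 in wild type.

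RpL32 is the member that the study itself measured by another method, as the reference gene of its quantitative PCR. The primers are shown here because every relative level in such an assay is divided by the RNA between them. RpL32 lies on chromosome 3R (30045229 to 30046161, minus strand, BDGP6). No capitals are used, since no part of either primer is singled out.
RpL32 primer 1: cagctcgcgcacgttgt
RpL32 primer 2: tgctgcccaccggatt

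Most members were abundant, and a few were near 0. In wild type, 73 of the 87 had a mean above 100 CPM. A gene was tested where its mean normalized count over the 20 libraries was above 10, which held for 79 members (32 RpS and 47 RpL). The other 8 were RpL22-like, RpL7-like, RpS28a, RpL10Aa, RpS19b, RpS28-like, RpS10a and RpL37-2, with at most 0.29 CPM on average in wild type. Of these, RpL7-like had 0 counts in every library. Among the 79, 1 passed that minimum only through Δfne replicate 3 and is left out where 78 members are described, all of them above 10 CPM on average in wild type. It stays in the counts and medians given for 79 members.

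Per kb of exon, RpL41, a very small basic peptide of the large subunit, was the highest in wild type with 2645 CPM per kb. RpL36 followed with 965, RpL21 with 891 and RpS27A with 869 CPM per kb. The lowest of the 78 were RpLP0-like with 12.5 and RpS15Ab with 27.2 CPM per kb. Neither RpLP0-like nor RpL24-like is thought to sit in the working ribosome. Their yeast counterparts, Mrt4 and Rlp24, hold the places of the stalk base protein P0 and of L24 on the immature large subunit and are exchanged for them.

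In the sets of ribosomal protein gene copies described here, 1 copy supplied most of the RNA in heads of every genotype. Of the CPM per kb of RpS15Aa and RpS15Ab, RpS15Aa held 95% in ΔfneΔrbp9, 94.6% in Δfne, 94.9% in Δrbp9 and 94.8% in wild type. RpS14a and RpS14b, tandem genes with nearly the same sequence whose reads the counting may have split, gave RpS14a 75.5% in ΔfneΔrbp9, 77.2% in Δfne, 74.8% in Δrbp9 and 76.0% in wild type. RpL34b held 76.1% of RpL34a and RpL34b in ΔfneΔrbp9, 78.1% in Δfne, 76.3% in Δrbp9 and 76.3% in wild type. In the RpS19, RpS28, RpL22, RpL37, RpL7 and RpL10A sets the main copy held at least 99.8%. The minor copies stayed minor in all 3 mutants.

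Together the 87 genes took between 3.24 and 4.11% of the counts in a library. Their summed share of all counts in replicates 1 to 5 was 4.01, 3.92, 3.93, 3.88 and 4.03% in ΔfneΔrbp9, with a mean of 3.95 ± 0.0631% (SD, n = 5). It was 3.58, 3.54, 3.99, 3.73 and 4.03% in Δfne, with a mean of 3.78 ± 0.224%. In Δrbp9 it was 4.11, 4.04, 4.04, 3.85 and 3.94%, with a mean of 4.00 ± 0.105%, and in wild type 3.51, 3.82, 3.89, 3.27 and 3.24%, with a mean of 3.55 ± 0.301%. The mean of each mutant was above that of wild type, but wild-type replicates 2 and 3 reached the level of the mutants and the groups overlapped. The wild-type libraries had the widest spread. These shares are a description and were not tested.

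Small and large subunit genes kept their proportion. The ratio of summed RpS to summed RpL counts averaged 0.660 in ΔfneΔrbp9, 0.652 in Δfne, 0.651 in Δrbp9 and 0.660 in wild type, and lay between 0.644 and 0.671 in the 20 libraries. So the spread of the summed share between libraries was shared by both subunits.

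**Figure D1:**
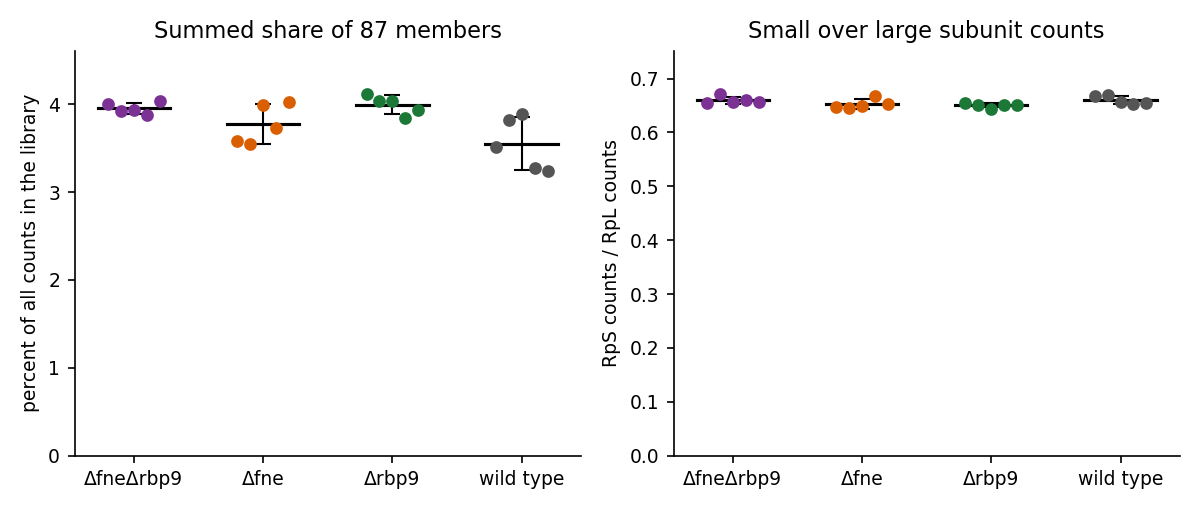
Summed share of the 87 cytoplasmic ribosomal protein genes in percent of all counts (left) and ratio of summed RpS to summed RpL counts (right) in ΔfneΔrbp9, Δfne, Δrbp9 and wild type. Dots are libraries, the line is the mean and bars are the SD of 5 libraries; wild type runs from 3.24 to 3.89%, ΔfneΔrbp9 from 3.88 to 4.03%, and the ratio stays between 0.644 and 0.671.

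The members moved together from library to library, also within 1 genotype. Among the 78 members, 77 were above their wild-type mean in wild-type replicate 2 and 77 in replicate 3, but 34 in replicate 1 and 2 each in replicates 4 and 5. In Δfne, 5, 5, 77, 36 and 76 members were above the Δfne mean in replicates 1 to 5. The counts were more even in ΔfneΔrbp9 (57, 41, 37, 18 and 54) and in Δrbp9 (70, 53, 52, 10 and 16). The first component of the variance within groups held 63.4% for these 78 genes and 24.7% for the 10481 other tested genes. The 2 sets differ in size, and the other genes reach down to lower counts, where counting error is larger. No set matched in size and level was compared.

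This shared movement was as large as the differences between genotypes. The median deviation of the 78 genes from their wild-type mean, on the log2 CPM scale, was 0.17, 0.15, 0.15, 0.12 and 0.18 in ΔfneΔrbp9 and 0.01, −0.03, 0.16, 0.08 and 0.19 in Δfne. It was 0.16, 0.12, 0.14, 0.09 and 0.10 in Δrbp9, and −0.01, 0.13, 0.13, −0.13 and −0.13 in the wild-type libraries themselves. Among 309 other genes with a short total exon length (under 1.5 kb) and over 100 CPM, 75.1, 70.6, 54.0, 31.7 and 29.4% were above the group mean in wild-type replicates 1 to 5. In Δfne those shares were 27.8, 14.9, 64.4, 65.4 and 79.0%, in Δrbp9 68.9, 61.2, 42.1, 35.3 and 46.0%, and in ΔfneΔrbp9 49.2, 68.6, 44.7, 42.4 and 39.8%. In ΔfneΔrbp9, replicate 5 had the lowest of these shares, with 54 members above the mean, and replicate 2 the highest, with 41. The part of this in the members' values was not tested.

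**Figure D2:**
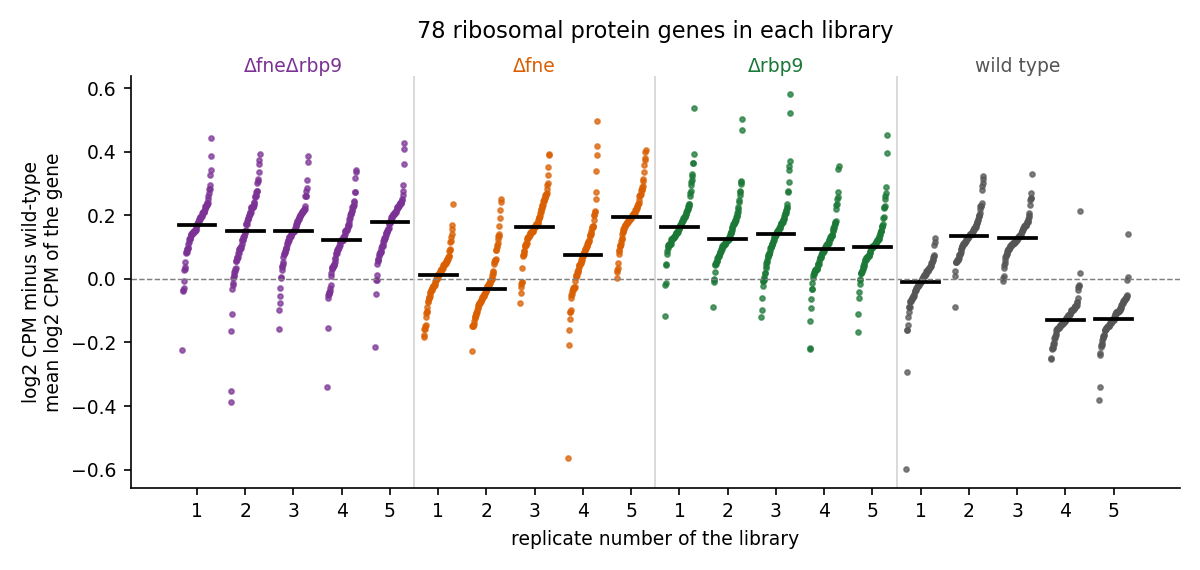
Deviation of each of 78 tested members from its wild-type mean, in log2 CPM, in every library, ordered by genotype. Each dot is a gene and the bar is the median of the library; wild-type replicates 2 and 3 lie at 0.13 and wild-type replicates 4 and 5 at −0.13, and the ΔfneΔrbp9 libraries lie between 0.12 and 0.18.

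In ΔfneΔrbp9 against wild type, most members were slightly higher. The median log2 fold change of the 79 tested members was 0.15 (1.11-fold, quartiles 0.10 and 0.19), and 74 of 79 were positive. These hold the member that passed the count minimum only through Δfne replicate 3. Without it, RpLP0-like and RpL24-like, 72 of 76 were positive and the median was 0.16. Over all 10560 genes tested the median was 0.00 and 49.9% were positive. The median was 0.14 for the small and 0.17 for the large subunit. It was alike on the chromosome arms, from 0.13 on X to 0.18 on 2L.

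A gene passed where the adjusted p of edgeR's quasi-likelihood F-test (Benjamini-Hochberg over all genes tested, 1 fit of the 20 libraries) was below 0.01, and was called where its absolute log2 fold change was also above 0.5. In ΔfneΔrbp9 against wild type 18 of 79 members passed, or 22.8%, against 24.9% of all genes tested. Of these 17 were higher (21.5% of members, against 11.9% of all genes) and 1 was lower (1.27%, against 13% of all genes). No member was called by edgeR, against 9.53% of all genes. DESeq2's Wald test called 0 as well, and 52 members had an unadjusted edgeR p under 0.05, or 65.8% against 44.6%. Every library of ΔfneΔrbp9 was above every wild-type library for 14 members (17.7%, against 11.1% of all genes), and no member had every library below (12.1% of all genes).

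The number that passed depended on single libraries. It was 8 without wild-type replicate 4 (10.1%, against 22.5% of all genes). It was 11 (13.9%) without wild-type replicate 1, ΔfneΔrbp9 replicate 1 or ΔfneΔrbp9 replicate 5, against 22.2, 22.1 and 22.3% of all genes. It was 30 without wild-type replicate 2 (38%, against 23.4% of all genes) and 35 without wild-type replicate 3 (44.3%, against 23.6%). With only the ΔfneΔrbp9 and wild-type libraries in the fit, 4 of 78 members passed (5.13%, against 19.2% of all genes there).

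RpL8, a large subunit protein next to the peptidyl transferase centre, had the smallest p (3L, 2587456 to 2588883, plus strand, BDGP6). RpL8 stood at 726, 690.2, 726, 704 and 737 CPM in replicates 1 to 5 of ΔfneΔrbp9, at 604, 561, 667, 613 and 687 CPM in those of Δfne, at 729, 667, 704, 705 and 665 CPM in those of Δrbp9 and at 533, 606, 628, 511 and 510.0 CPM in those of wild type. Every ΔfneΔrbp9 and every Δrbp9 library was above the highest wild-type library, while the Δfne libraries overlapped wild type. In ΔfneΔrbp9 the log2 fold change over wild type was 0.36 ± 0.0603 (SE), with an edgeR adjusted p of 8.37e-05. It was 0.17 in Δfne (adjusted p = 0.0414, not passed) and 0.32 ± 0.0603 in Δrbp9 (adjusted p = 0.00043). RpL8 passed in ΔfneΔrbp9 and in Δrbp9 with any 1 of the 20 libraries left out.

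RpS25, a protein of the small subunit head (3R, 11215028 to 11216287, minus strand, BDGP6), passed in each mutant. RpS25 stood at 647, 625, 618, 629.8 and 645 CPM in replicates 1 to 5 of ΔfneΔrbp9, at 556, 609, 634, 618 and 663 CPM in those of Δfne, at 661, 659.7, 615, 603 and 635 CPM in those of Δrbp9 and at 528, 578, 572, 488 and 504 CPM in those of wild type. The ΔfneΔrbp9 and Δrbp9 libraries lay above all wild-type libraries, and in Δfne only replicate 1 fell within the wild-type range. The log2 fold changes were 0.25 ± 0.0498 in ΔfneΔrbp9, 0.21 ± 0.0497 in Δfne and 0.25 ± 0.0498 in Δrbp9, with edgeR adjusted p-values of 0.000615, 0.0036 and 0.000647. In Δfne it did not pass in 3 of the 20 fits with 1 library left out, those without Δfne replicate 3, Δfne replicate 5 and wild-type replicate 4, at adjusted p up to 0.0129, nor in a fit of Δfne and wild type alone (adjusted p = 0.0300).

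RpL32, the reference gene whose primers are given above, was among the higher members. RpL32 stood at 506, 468, 515, 483 and 513 CPM in replicates 1 to 5 of ΔfneΔrbp9, at 417, 417, 490.0, 434 and 526 CPM in those of Δfne, at 493, 491, 517, 476 and 468 CPM in those of Δrbp9 and at 406, 439, 439, 359.9 and 360.0 CPM in those of wild type. No ΔfneΔrbp9 or Δrbp9 library overlapped wild type, and Δfne replicates 1, 2 and 4 lay within the wild-type range. Its mean was 497 ± 20.5 CPM in ΔfneΔrbp9, 457 ± 49.0 in Δfne, 489 ± 18.8 in Δrbp9 and 401 ± 39.8 in wild type (SD, n = 5 each). That is 124, 114 and 122% of wild type in ΔfneΔrbp9, Δfne and Δrbp9. The log2 fold change was 0.31 ± 0.0679 in ΔfneΔrbp9 (edgeR adjusted p = 0.00124), 0.19 in Δfne (adjusted p = 0.0417, not passed) and 0.29 ± 0.0679 in Δrbp9 (adjusted p = 0.00282). In Δrbp9 it was at 0.0101 without wild-type replicate 4.

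A level expressed relative to RpL32 therefore came out lower in the mutants than the same level in CPM. In Δfne this rests on a change of RpL32 that did not pass. For mimi (FBgn0051451), the long noncoding RNA at the centre of the study, the mean CPM was 22.8% of wild type in ΔfneΔrbp9, 89.9% in Δfne and 77.2% in Δrbp9. As a ratio to RpL32 within each library it was 18.3% of wild type in ΔfneΔrbp9, 79.0% in Δfne and 63.0% in Δrbp9. The order of the genotypes was the same on both scales.

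**Figure D3:**
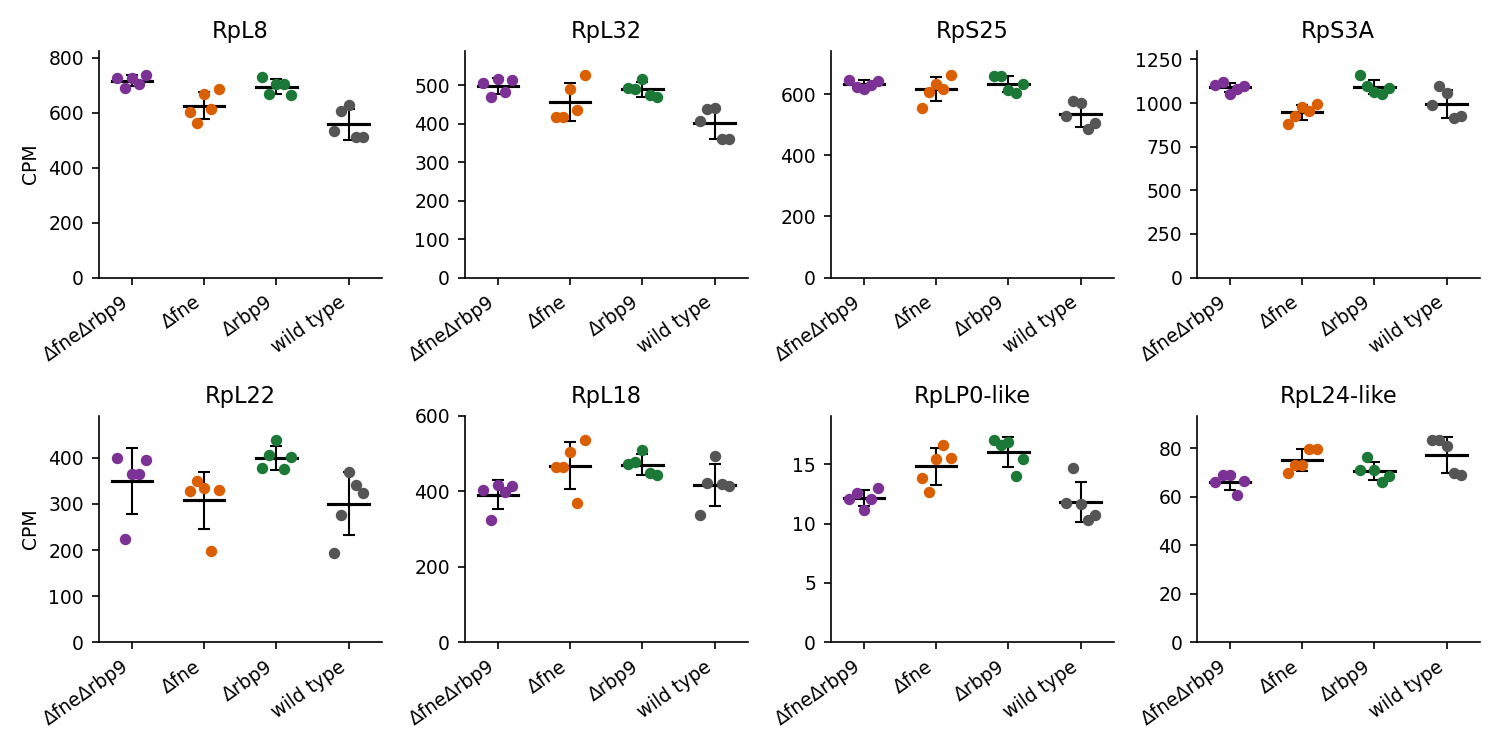
CPM per library of RpL8, RpL32, RpS25, RpS3A, RpL22, RpL18, RpLP0-like and RpL24-like in ΔfneΔrbp9, Δfne, Δrbp9 and wild type, each with its own axis. Dots are libraries, lines are means and bars are SDs of 5 libraries. RpL8 and RpL32 in ΔfneΔrbp9 and Δrbp9 lie above all wild-type libraries. RpLP0-like has 11.1 to 13.0 CPM in ΔfneΔrbp9, within the wild-type range of 10.3 to 14.7 CPM.

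The members that join the 5S ribosomal RNA before it enters the large subunit are RpL5 and RpL11, and both passed in ΔfneΔrbp9. RpL5 had 1134, 1060.4, 1053, 1123 and 1131 CPM in ΔfneΔrbp9 replicates 1 to 5, against 936, 1018, 1046, 911 and 935 CPM in wild type. The groups did not overlap, and the log2 fold change was 0.18 ± 0.0397 (edgeR adjusted p = 0.00115). For RpL11, named after its values were seen, the libraries ranged from 519 to 542 CPM in ΔfneΔrbp9 and from 417 to 509 CPM in wild type, with a log2 fold change of 0.20 ± 0.0523 (adjusted p = 0.00437). RpL15 (0.19 ± 0.0437, adjusted p = 0.00166) and RpL21 (0.19 ± 0.0554, adjusted p = 0.0098) also rose. With 1 library left out, RpL15 passed in all 20 fits and RpL21 in 4, those without Δfne replicate 1 or 2 or wild-type replicate 2 or 3. In the fit of ΔfneΔrbp9 and wild type alone, RpL5, RpL15 and RpL21 did not pass (adjusted p of 0.0199, 0.0219 and 0.0409). Other higher members, named after their values were seen, were RpL17, RpS4, RpS20, RpL28, RpL37A, RpS7, RpL4 and RpS24, with log2 fold changes of 0.18 to 0.27, and RpL40.

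RpL40 and RpS27A are made as fusions to ubiquitin, which is cut off again. RpL40 had 539, 539.7, 523, 548 and 552 CPM in replicates 1 to 5 of ΔfneΔrbp9, 473, 460.4, 514, 477 and 548 CPM in those of Δfne, 532, 509, 526, 505 and 506 CPM in those of Δrbp9 and 476, 504, 502, 426 and 435 CPM in those of wild type. ΔfneΔrbp9 and Δrbp9 did not overlap wild type, and the log2 fold change was 0.21 ± 0.0506 in ΔfneΔrbp9 (edgeR adjusted p = 0.00328), which was 0.0117 without wild-type replicate 4 and 0.0141 in the fit of these groups alone. In Δfne it was 0.08 and in Δrbp9 0.14, neither passing. RpS27A ranged over 573 to 619 CPM in ΔfneΔrbp9, 532 to 621 in Δfne, 528 to 584 in Δrbp9 and 458 to 587 in wild type. The groups overlapped, and its log2 fold changes of 0.20, 0.16 and 0.11 in ΔfneΔrbp9, Δfne and Δrbp9 did not pass (edgeR adjusted p of 0.0124, 0.0459 and 0.152).

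The genes of the stalk, which recruits the elongation factors, did not pass in any mutant. RpLP0 had log2 fold changes of 0.04, 0.05 and 0.10 in ΔfneΔrbp9, Δfne and Δrbp9 (edgeR adjusted p of 0.621, 0.581 and 0.231). RpLP1 had 0.19, 0.08 and 0.10, and RpLP2 0.14, −0.05 and 0.13. RpS6, the small subunit protein phosphorylated by S6 kinase, had 0.12, 0.09 and 0.10, with adjusted p of 0.0456, 0.184 and 0.103. All 4 genes had overlapping libraries in ΔfneΔrbp9 and wild type.

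In Δfne against wild type the members shifted less than in ΔfneΔrbp9. The median log2 fold change was 0.09 (1.06-fold, and 0.05 without wild-type replicate 4) and 69 of 79 were positive. All genes tested had a median of 0.00 with 51.4% positive. The 79 hold the member that passed the count minimum only through Δfne replicate 3. Without it, RpLP0-like and RpL24-like, 67 of 76 were positive and the median was 0.09. By edgeR 2 members passed, both higher and none lower (2.53%, against 19.1% of all genes, 9.44% higher and 9.69% lower). They were RpS25 and RpLP0-like. None was called by edgeR, against 8.04% of all genes, DESeq2 called 0, and 21 had an unadjusted p under 0.05 (26.6%, against 40.4% of all genes). No member had every Δfne library above every wild-type library, against 8.76% of all genes, and none had every library below, against 8.74%. The count of 2 was 0 without Δfne replicate 3 (against 17.2% of all genes) and 0 without wild-type replicate 4 (against 16.8%). It was 5 without wild-type replicate 2 (6.33%, against 17.5% of all genes) and 7 without wild-type replicate 3 (8.86%, against 17.5%). It was 1 without any 1 of ΔfneΔrbp9 replicates 1, 2, 4 and 5, Δfne replicates 4 and 5, Δrbp9 replicates 1, 2, 3 and 5 or wild-type replicates 1 and 5 (1.27%, against 16.4 to 20.7% of all genes). In a fit of Δfne and wild type alone it was 0, where 12.3% of all genes passed.

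In Δrbp9 against wild type, the median was 0.12 (1.08-fold) and 73 of 79 were positive, while 50.4% of all genes were. The 79 hold the member that passed the count minimum only through Δfne replicate 3. Without it, RpLP0-like and RpL24-like, 71 of 76 were positive and the median was 0.11. By edgeR 10 members passed, all higher (12.7%, against 22.9% of all genes, 11% higher and 11.8% lower). None was called by edgeR, against 8.05% of all genes, DESeq2 called 0, and 41 had an unadjusted p under 0.05 (51.9%, against 44.7% of all genes). Every Δrbp9 library was above every wild-type library for 11 members (13.9%, against 10.5% of all genes), and below for none (10.7% of all genes). The count of 10 was 4 without wild-type replicate 4 (5.06%, against 19.4% of all genes) and 5 without Δrbp9 replicate 1 (6.33%, against 18.6%). It was 6 (7.59%) without Δrbp9 replicate 2 or 3, against 18.5 and 18.6% of all genes. It was 19 without wild-type replicate 2 (24.1%, against 22.1% of all genes) and 23 without wild-type replicate 3 (29.1%, against 23.2%). It was 5 of 78 in a fit of Δrbp9 and wild type alone, where 16% of all genes passed. When libraries were scaled by their totals instead of by TMM it was 24 (30.4%, against 24.2% of all genes).

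Besides RpL8, RpS25 and RpL32, RpL27 and RpL41 of the large subunit rose in Δrbp9. RpL27 had 541, 499, 537, 508 and 491 CPM in Δrbp9 and 404, 454, 477, 393 and 382 CPM in wild type. The groups were apart, with a log2 fold change of 0.29 ± 0.0606 (edgeR adjusted p = 0.00102). RpL41, the most abundant member per kb, had 1053, 1038, 1015, 947 and 1014 CPM in Δrbp9 and 883, 941, 945, 724 and 740.1 CPM in wild type. These did not overlap either, and the log2 fold change was 0.26 ± 0.0693 (adjusted p = 0.00656). RpL5 rose by 0.15 ± 0.0397 on the log2 scale (adjusted p = 0.00714). RpL41 and RpL5 each failed to pass in 6 of the 20 fits with 1 library left out, at adjusted p up to 0.0204 and 0.0240. These were the fits without Δrbp9 replicate 1, 2, 3 or 5 or wild-type replicate 4 for both, and without wild-type replicate 5 for RpL41 or wild-type replicate 1 for RpL5. Neither passed in the fit of Δrbp9 and wild type alone (adjusted p of 0.0278 and 0.0265). The rest of the 10 were RpLP0-like and, named after their values were seen, RpL4, RpL6 and RpS4.

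All 3 comparisons share the wild-type libraries, so their values are set side by side and no overlap between them is drawn. RpL36, the second highest member per kb, had log2 fold changes of −0.01, −0.04 and −0.09 in ΔfneΔrbp9, Δfne and Δrbp9, none passing. Across the 4 genotypes at once, 13 of 79 members differed (16.5%, against 42.8% of all genes) by an edgeR quasi-likelihood test with 3 degrees of freedom.

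**Figure D4:**
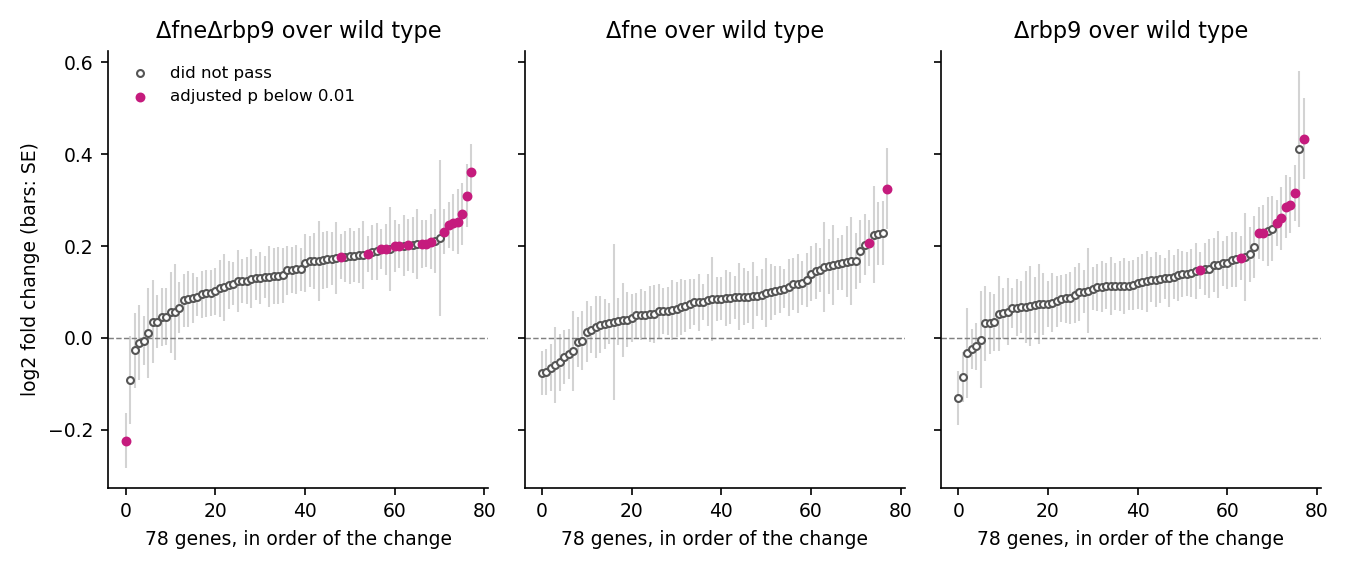
Log2 fold change with its SE for 78 tested members in ΔfneΔrbp9, Δfne and Δrbp9 against wild type. Filled symbols have an edgeR adjusted p below 0.01: 18 in ΔfneΔrbp9, 2 in Δfne and 10 in Δrbp9; all but RpL24-like in ΔfneΔrbp9 lie above 0.

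Markers of other head tissues also differed between the genotypes. The summed CPM of 5 hemocyte and basement membrane markers was 1131 to 1399 in ΔfneΔrbp9, 1087 to 1406 in Δfne, 1096 to 1391 in Δrbp9 and 1469 to 1992 in wild type, so all mutant libraries were below all wild-type libraries. For muscle, 4 of 5 markers were matched, with sums of 10742 to 12101 in ΔfneΔrbp9, 14305 to 15744 in Δfne, 11030 to 12283 in Δrbp9 and 12925 to 16287 in wild type. Photoreceptor sums were 21879 to 22805, 20752 to 22218 and 18608 to 19474 CPM in ΔfneΔrbp9, Δfne and Δrbp9, and 20519 to 23214 CPM in wild type. Glial sums were 2489 to 2663, 2910 to 3224 and 2441 to 2676 CPM in ΔfneΔrbp9, Δfne and Δrbp9, and 2849 to 3345 CPM in wild type. Fat body sums varied most, with 7830 to 12878 CPM in ΔfneΔrbp9, 6455 to 13291 in Δfne, 12608 to 17308 in Δrbp9 and 4958 to 27311 in wild type. None of these markers was at 0 in every library, and their part in the members' differences was not tested.

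Setting ΔfneΔrbp9 against each single mutant asks what the loss of the other protein adds. Against Δfne the members' median log2 fold change was 0.07, with 66 of 79 positive against 49% of all genes, and 1 member passed (1.27%, against 19% of all genes). None was called by edgeR, against 6.81% of all genes, DESeq2 called 0 and 19 had an unadjusted p under 0.05 (24.1%, against 39% of all genes). The median was 0.04 without Δfne replicate 1 or 2 and 0.10 without Δfne replicate 5. Against Δrbp9 the median was 0.02, with 53 of 79 positive against 48.8% of all genes, though the median was −0.01 when libraries were scaled by their totals (all genes −0.04) and 0.01 without ΔfneΔrbp9 replicate 1, so its direction is not settled. Here 1 member passed (1.27%, against 15.1% of all genes). None was called by edgeR, against 4.66%, DESeq2 called 0 and 6 had an unadjusted p under 0.05 (7.59%, against 38.2% of all genes). In fits of only the groups compared, 2 of 79 members passed against Δfne (2.53%, against 19.1% of all genes there) and 4 of 78 against Δrbp9 (5.13%, against 20.9%). Against Δfne the count was 2 (2.53%) without Δfne replicate 2, Δfne replicate 4 or wild-type replicate 4, against 17.2, 16.8 and 18.8% of all genes. It was 3 (3.8%) without Δfne replicate 5, wild-type replicate 2 or wild-type replicate 5, against 17.5, 19.2 and 20.9%. Without wild-type replicate 3 it was 4 (5.06%, against 19.4%).

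The member that passed between ΔfneΔrbp9 and Δfne was RpS3A, a small subunit protein whose gene is the only member on chromosome 4 (65225 to 67207, minus strand, BDGP6). RpS3A stood at 1102, 1120.0, 1053, 1081 and 1100.2 CPM in replicates 1 to 5 of ΔfneΔrbp9, at 880.2, 924, 976, 953 and 997 CPM in those of Δfne, at 1160.5, 1100.5, 1065, 1053 and 1084 CPM in those of Δrbp9 and at 990.4, 1096, 1057, 915 and 925 CPM in those of wild type. Every ΔfneΔrbp9 library was above every Δfne library, and wild type spanned both. The log2 fold change of ΔfneΔrbp9 over Δfne was 0.21 ± 0.0479 (edgeR adjusted p = 0.00265), and it passed with any 1 library left out. Against wild type RpS3A did not pass in ΔfneΔrbp9 (0.13), Δfne (−0.08) or Δrbp9 (0.13). The interaction was 0.07 with an adjusted p of 0.463.

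The interaction term asks whether the log2 change of the double mutant departs from the sum of the changes of the single mutants. For the members its median was −0.05, with 20 of 79 positive against 48.6% of all genes. It was −0.10 with libraries scaled by their totals (all genes −0.06), −0.09 without wild-type replicate 2 or 3, −0.08 without Δfne replicate 2, −0.03 without Δfne replicate 3 and −0.02 without Δfne replicate 5 or wild-type replicate 4. One member passed and was called, RpLP0-like, that is 1.27% of members against 16.5% of all genes passing and 8.97% called. By edgeR 8 members had an unadjusted p under 0.05 (10.1%, against 38% of all genes), and DESeq2 called 1. The passing count was 2 (2.53%) without Δfne replicate 1, Δfne replicate 4 or wild-type replicate 3, against 16.2, 14.8 and 16.9% of all genes. With libraries scaled by their totals it was 3 (3.8%, against 17.5%).

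RpLP0-like (2R, 10098518 to 10099590, minus strand, BDGP6) is the relative of RpLP0 that in yeast acts during assembly of the large subunit. RpLP0-like stood at 12.0, 12.5, 11.1, 12.0 and 13.0 CPM in replicates 1 to 5 of ΔfneΔrbp9, at 13.8, 12.7, 15.4, 16.6 and 15.5 CPM in those of Δfne, at 17.0, 16.6, 16.8, 14.03 and 15.4 CPM in those of Δrbp9 and at 11.7, 14.7, 11.7, 10.3 and 10.7 CPM in those of wild type. All Δrbp9 libraries were above all ΔfneΔrbp9 libraries, and the ΔfneΔrbp9 libraries lay within the wild-type range. Its mean was 12.1 ± 0.685 CPM in ΔfneΔrbp9, 14.8 ± 1.54 in Δfne, 16.0 ± 1.26 in Δrbp9 and 11.8 ± 1.71 in wild type. By edgeR's quasi-likelihood test, the log2 fold change against wild type was 0.04 in ΔfneΔrbp9 (adjusted p = 0.798), 0.32 ± 0.0883 in Δfne (adjusted p = 0.00856) and 0.43 ± 0.0884 in Δrbp9 (adjusted p = 0.000796). ΔfneΔrbp9 over Δrbp9 was −0.40 ± 0.0893 (adjusted p = 0.00259) and the interaction −0.72 ± 0.126 (adjusted p = 0.000223). The interaction was called, and RpLP0-like passed in Δrbp9 against wild type and in ΔfneΔrbp9 against Δrbp9, with any 1 library left out. In Δfne against wild type it passed in 5 of those 20 fits (without ΔfneΔrbp9 replicate 3, Δfne replicate 1 or 2, Δrbp9 replicate 4 or wild-type replicate 2) and did not in 15, at adjusted p up to 0.0302 without Δfne replicate 4. There it did not pass in a fit of Δfne and wild type alone either (adjusted p = 0.0410), nor without the filter on low counts (adjusted p = 0.0113).

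RpL24-like (3R, 11430740 to 11431582, minus strand, BDGP6), the counterpart of yeast Rlp24, was the 1 member that fell in ΔfneΔrbp9 in the fit of all 20 libraries. RpL24-like stood at 65.8, 68.7, 69.0, 60.8 and 66.2 CPM in replicates 1 to 5 of ΔfneΔrbp9, at 69.6, 73.1, 73.0, 79.6 and 79.6 CPM in those of Δfne, at 71.0, 76.4, 70.8, 66.0 and 68.5 CPM in those of Δrbp9 and at 83.3, 83.2, 81.0, 69.6 and 68.9 CPM in those of wild type. The groups touched, with ΔfneΔrbp9 replicate 3 level with wild-type replicate 5. The log2 fold change was −0.22 ± 0.0596 in ΔfneΔrbp9 (edgeR adjusted p = 0.00591), and −0.04 in Δfne and −0.13 in Δrbp9 did not pass. It did not pass in 6 of the 20 fits with 1 library left out: those without ΔfneΔrbp9 replicate 1, 4 or 5 or wild-type replicate 1, 2 or 3, at adjusted p up to 0.0207. In the fit of ΔfneΔrbp9 and wild type alone it did not pass either (adjusted p = 0.0188). RpL24 itself had log2 fold changes of 0.09, 0.03 and 0.12 in ΔfneΔrbp9, Δfne and Δrbp9, none passing. Of the CPM per kb of both genes, RpL24 held 80.8% in ΔfneΔrbp9, 78.1% in Δfne, 80.1% in Δrbp9 and 77.2% in wild type. The interaction of RpL24-like was −0.05 (adjusted p = 0.694), so the pattern of RpLP0-like was not seen in it.

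The genes that build ribosomes in the nucleolus were taken as a list of 25, all of them tested. In Δfne 10 passed, all higher, with a median log2 fold change of 0.22, and in Δrbp9 10 passed, all higher, with a median of 0.30. Of all genes, 9.44 and 11% passed higher in these comparisons. In ΔfneΔrbp9 1 of 25 passed, where 24.9% of all genes passed and 13% passed lower, and the median was −0.10. This was pit, which was lower (−0.31, edgeR adjusted p = 0.00339, named after its value was seen). For the interaction 20 of 25 passed, all lower, with a median of −0.62, and 8.07% of all genes passed lower. The Δfne count was 5 and the ΔfneΔrbp9 count 0 in fits of only the groups compared, where 12.3 and 19.2% of all genes passed.

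Fib, the fibrillarin that methylates ribosomal RNA, had 8.16, 8.45, 10.3, 6.16 and 9.70 CPM in replicates 1 to 5 of ΔfneΔrbp9, 15.4, 14.7, 14.2, 16.0 and 15.6 CPM in those of Δfne, 12.9, 12.9, 12.0, 14.2 and 12.7 CPM in those of Δrbp9 and 9.21, 10.7, 10.5, 8.41 and 7.87 CPM in those of wild type. All libraries of both single mutants were above all libraries of ΔfneΔrbp9 and wild type, which overlapped. Its log2 fold changes were −0.12 in ΔfneΔrbp9 (edgeR adjusted p = 0.418), 0.70 in Δfne (adjusted p = 2.14e-05) and 0.47 in Δrbp9 (adjusted p = 0.00144), with an interaction of −1.29 (adjusted p = 1.77e-06). Nop56 and nop5, core proteins of the same methylating particles, had interactions of −1.13 and −1.33. Nop60B, the pseudouridine synthase, had −1.26 (adjusted p = 1.83e-06). Nop56 ranged over 21.8 to 23.7 CPM in ΔfneΔrbp9, 29.3 to 37.1 in Δfne, 33.0 to 35.9 in Δrbp9 and 19.7 to 25.8 in wild type, and again both single mutants stood above the other groups. RpLP0-like was the only one of the 79 members to pass for the interaction, against 20 of these 25 assembly genes.

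Translation factors, of which 33 of 35 listed were tested, had small median changes. Their median log2 fold change was 0.11 in ΔfneΔrbp9, 0.07 in Δfne and 0.15 in Δrbp9, with 12, 6 and 18 of 33 passing higher and 1, 1 and 0 lower. Over all genes 11.9, 9.44 and 11% passed higher and 13, 9.69 and 11.8% lower in these comparisons. Mitochondrial ribosomal proteins, with 70 of 71 tested, had medians of 0.03, 0.10 and 0.20, with 3, 5 and 25 of 70 passing higher and 3, 1 and 0 lower, against the same shares of all genes. The 25 in Δrbp9 are above the share of all genes, and the 3 and 5 in ΔfneΔrbp9 and Δfne are below it. In the interaction 13 of the 70 passed, all lower, against 8.07% of all genes, with mRpL39 (−0.85 ± 0.0916, edgeR adjusted p = 1.00e-06) and mRpL50 (−0.73 ± 0.109, adjusted p = 4.58e-05) the strongest. Of the 2 cytoplasmic ribosomal proteins with other symbols, sta passed in Δrbp9 (0.25 ± 0.0704, adjusted p = 0.00963) and Rack1 in none.

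Among 21 genes of growth control and of ribosomal protein gene regulation, 18 were tested. Of these 1 rose and 2 fell in ΔfneΔrbp9, 0 rose and 1 fell in Δfne, and 2 rose and 3 fell in Δrbp9, with medians of 0.01, 0.02 and −0.04. Over all genes 24.9, 19.1 and 22.9% passed in either direction. Xrp1, a transcription factor known in flies for its induction when a ribosomal protein gene is lost, was named after its values were seen. It averaged 174.6 ± 8.14 CPM in ΔfneΔrbp9, 214 ± 7.39 in Δfne, 199.8 ± 7.10 in Δrbp9 and 240.0 ± 11.5 in wild type (SD, n = 5 each). It fell by 0.46, 0.17 and 0.26 on the log2 scale in ΔfneΔrbp9, Δfne and Δrbp9 (edgeR adjusted p of 1.91e-08, 0.0031 and 3.58e-05). Thor, a repressor of cap-dependent translation, was the only gene of the list called against wild type, in Δrbp9 (−1.14 ± 0.249, adjusted p = 0.00146).

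**Figure D5:**
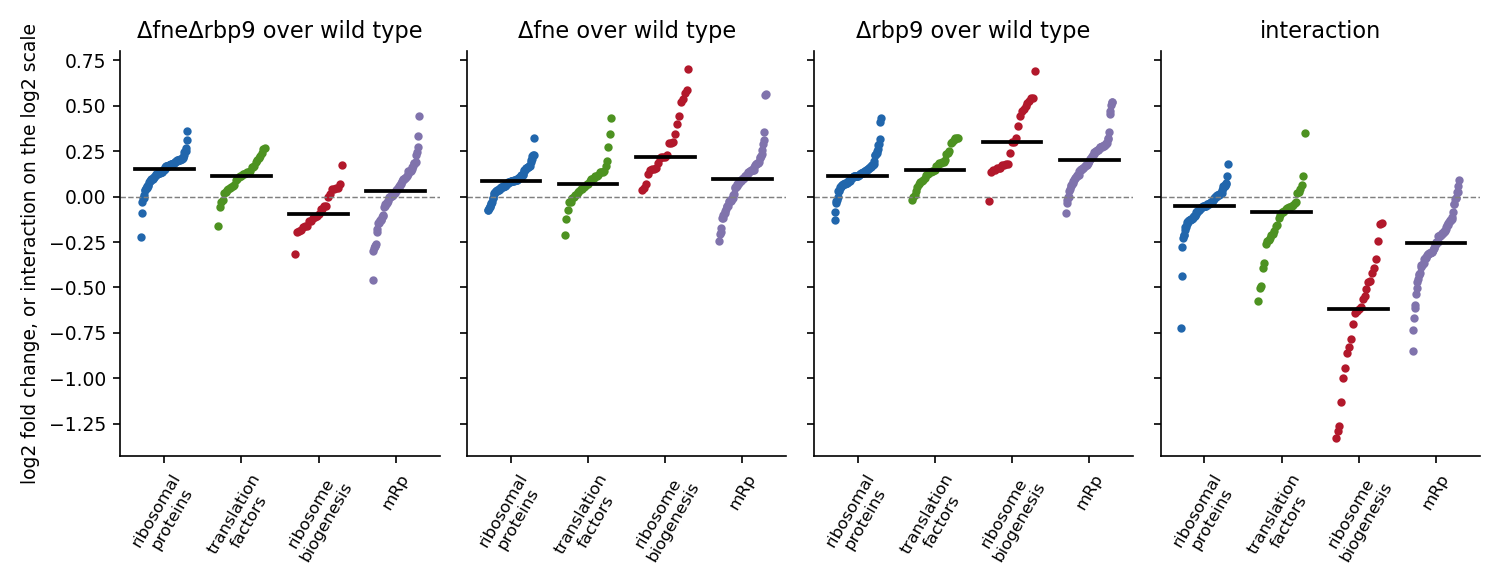
Log2 fold changes of 78 ribosomal protein genes, translation factors, ribosome biogenesis genes and mitochondrial ribosomal proteins in ΔfneΔrbp9, Δfne and Δrbp9 against wild type, and the interaction. Dots are genes and bars are medians; the biogenesis genes lie at medians of −0.10, 0.22 and 0.30 and at −0.62 for the interaction, and the 78 ribosomal protein genes at 0.15, 0.09, 0.11 and −0.05.

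RpL22 and RpL18, both of the large subunit, were low in the same libraries. RpL22 stood at 399, 224, 364, 366 and 394 CPM in replicates 1 to 5 of ΔfneΔrbp9, at 327, 349, 335, 199 and 330.2 CPM in those of Δfne, at 377, 406, 439, 375 and 401 CPM in those of Δrbp9 and at 194, 276, 369, 340.3 and 324 CPM in those of wild type. The libraries at the bottom were ΔfneΔrbp9 replicate 2, Δfne replicate 4 and wild-type replicate 1. RpL18 stood at 403, 324, 416, 399.6 and 413 CPM in replicates 1 to 5 of ΔfneΔrbp9, at 466, 465, 504, 371 and 536 CPM in those of Δfne, at 474, 479, 511, 448 and 444 CPM in those of Δrbp9 and at 338, 421, 493, 419 and 413 CPM in those of wild type. The same 3 libraries were the lowest of their groups for RpL18. Mitochondrial genes took 5.98% of the counts in ΔfneΔrbp9 replicate 2, 6.12% in Δfne replicate 4 and 5.16% in wild-type replicate 1, and 3.92 to 6.12% over all libraries. Their part in these values was not tested. Every Δrbp9 library was above every wild-type library for RpL22, yet its log2 fold change of 0.41 ± 0.17 did not pass (edgeR adjusted p = 0.0669). For RpL18 no comparison passed in the fit of all libraries, where the interaction was −0.43 (adjusted p = 0.0213). It passed for ΔfneΔrbp9 against Δrbp9 in the fit of these groups alone (−0.27, adjusted p = 0.00791) and for the interaction with libraries scaled by their totals (−0.48, adjusted p = 0.00997).

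RpS10a, a minor copy known from the germline and below the minimum for testing, had 20 counts in Δfne replicate 3 and at most 9 in any other library. Of 5 ovary and germline markers 3 were matched, and in Δfne replicate 3 osk had 13.98, piwi 2.58 and aub 2.38 CPM, against ranges of 0 to 0.396, 0.145 to 0.884 and 0.377 to 1.71 CPM in the other 19 libraries.

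RpS21 is the only member within 200 kb of Rbp9 (2L, 2954762 to 2968434, BDGP6), at a distance of 97.7 kb (2L, 2856070 to 2857029, plus strand), and no member lies within 200 kb of fne. It ranged over 178 to 199 CPM in ΔfneΔrbp9, 172 to 194 in Δfne, 174 to 190.2 in Δrbp9 and 156 to 199 in wild type. All groups overlapped, and the log2 fold changes of 0.11, 0.08 and 0.07 in ΔfneΔrbp9, Δfne and Δrbp9 did not pass (edgeR adjusted p of 0.189, 0.373 and 0.439). CG8814, a gene between RpS21 and Rbp9 that was named after its values were seen, was lower by contrast in the genotypes with the deficiency, with −1.05 in ΔfneΔrbp9 (adjusted p = 3.32e-13), 0.20 in Δfne and −1.11 in Δrbp9 (adjusted p = 1.78e-13).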

How the data were processed

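Total RNA of adult heads was sequenced in 20 libraries (TruSeq Stranded total RNA Gold, 725 ng of RNA per library), grouped by the genotype in the labels. The authors mapped the reads and counted them per gene with the snakePipes RNA-seq module (STAR and featureCounts, dm6, Ensembl release 96), and deposited raw counts. The versions of these tools, whether strand was used in counting and how multimapping reads were treated are not given in the sources used here. The other deposited table, which holds DESeq2 results of the authors (base mean, log2 fold change, standard error, statistic, p-value and adjusted p-value), was not used. Columns of per-sample values left unused numbered 0.

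Gene IDs were given symbols and coordinates from the BDGP6 annotation of Ensembl release 115. Of the 17558 IDs, 306 stayed without a symbol but were tested like the rest. CPM is the count divided by the library total times its TMM factor, multiplied by 1e6. Summed shares are over the total count, and levels between genes are per kb of exon.

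All 20 libraries were fitted together with edgeR's quasi-likelihood F-test, two-sided, TMM factors and Benjamini-Hochberg adjustment (edgeR 4.0.16, limma 3.58.1, R 4.3.3), over the 10560 genes with a mean normalized count above 10. The thresholds, an adjusted p below 0.01 and an absolute log2 fold change above 0.5, are those of the study. SE is on the log2 scale. DESeq2 1.42.0 was an alternative, beside other scalings, no filter on low counts, fits of only the groups compared, a replicate block and leaving out each library in turn. The fit was tested on simulated data. Within groups, the 40 pairs of libraries all differed by more than counting error (chi-square per degree of freedom at least 4.86), so no library was counted as a duplicate.

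The p-values measure the spread between these libraries. The labels do not say that they came from separate cultures, and the study's methods describe them as independent. The precision of low genes is set by counts of 10289950 to 25325636 per library.

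The members and the gene lists were chosen with earlier results of these data known. Members were named by a rule: RpL32, members within 200 kb of Rbp9 or fne, members of paralog sets, RpLP0, RpLP1, RpLP2, RpS27A, RpL40 and RpS6, the 3 highest and 3 lowest per kb in wild type, called members, and the 4 with the smallest p in each comparison. In other lists up to 4 called genes per direction and comparison could be named. Any further gene was named after its values were seen. A few members that the rule names are not reported here, though all tested members stay in the fits and counts. A search of promoters for motifs was not run, since no promoter sequences were used here.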

Additional observations from a re-analysis of the deposited data

Results flagged for a closer look

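In 140 groups of 5 libraries (the named members reported here and the summed share, in each genotype), 9 values lay far from the other 4 by Dixon's test with a critical value of 0.71. Chance alone sets apart about 1 in 20 such groups. In ΔfneΔrbp9 replicate 2, RpL18 (324 CPM) and RpL22 (224 CPM) were lower than in the other 4 libraries, and RpLP1 (668 CPM), RpS28b (616 CPM) and RpS29 (697 CPM) were higher. RpL34a was low in ΔfneΔrbp9 replicate 4 with 41.9 CPM. In Δfne, RpL15 stood apart in replicate 1 with 730.5 CPM and RpL22 in replicate 4 with 199 CPM. In Δrbp9, RpL37-1 stood apart in replicate 5 with 519 CPM.

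The change of RpLP0-like in ΔfneΔrbp9 differed from the sum of its changes in the single mutants. The interaction was −0.72 on the log2 scale (edgeR's quasi-likelihood test, adjusted p = 0.000223).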

How the results depend on the processing

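The members' median in ΔfneΔrbp9 against Δrbp9, 0.02, was −0.01 with total count scaling. No gene named that passed changed direction under any alternative. For the members that passed, the count in Δfne against wild type was 4 with DESeq2's Wald test (5.06%, against 21.5% of all genes). It was 1 without the filter on low counts (1.16%, against 12.2%) and 0 in a fit of only the groups compared (against 12.3%). In Δrbp9 against wild type it was 24 with total count scaling (30.4%, against 24.2%) and 5 in a fit of only the groups compared (6.41%, against 16%). In ΔfneΔrbp9 against wild type it was 4 in such a fit (5.13%, against 19.2%) and 25 with DESeq2's test (31.6%, against 26.9%). In ΔfneΔrbp9 against Δfne it was 2 with DESeq2 size factors (2.53%, against 18.7%), 4 with DESeq2's test (5.06%, against 21.1%) and 2 with only the groups compared (2.53%, against 19.1%). Against Δrbp9 it was 2 with DESeq2's test (2.53%, against 17.8%) and 4 with only the groups compared (5.13%, against 20.9%). For the interaction it was 3 with total count scaling (3.8%, against 17.5%). Of the biogenesis list, whose alternatives were chosen after seeing the data, 0 passed in ΔfneΔrbp9 and 5 in Δfne with only the groups compared. Of all genes 19.2 and 12.3% passed there. Without mitochondrial genes in the denominator the summed share was 4.18% in ΔfneΔrbp9, 3.98% in Δfne, 4.18% in Δrbp9 and 3.72% in wild type.

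With 1 library left out, 8 to 35 members passed in ΔfneΔrbp9 against wild type, 0 to 7 in Δfne and 4 to 23 in Δrbp9, 1 to 4 in ΔfneΔrbp9 against Δfne, 1 against Δrbp9 and 1 to 2 for the interaction. Of all genes, 22 to 26%, 16.4 to 20.7%, 18.5 to 23.2%, 16.3 to 20.9%, 11.7 to 18.6% and 14.6 to 17% passed, in the same order. The number called was 0 to 1 in Δfne and in Δrbp9 and 1 to 2 for the interaction. The members' median was 0.12 to 0.19 in ΔfneΔrbp9, 0.05 to 0.12 in Δfne and 0.09 to 0.16 in Δrbp9, 0.04 to 0.10 in ΔfneΔrbp9 against Δfne, 0.01 to 0.04 against Δrbp9 and −0.09 to −0.02 for the interaction. Of the biogenesis list 0 to 2 passed in ΔfneΔrbp9, 6 to 12 in Δfne, 10 to 13 in Δrbp9 and 17 to 22 for the interaction, beside the same shares of all genes.

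Whether replicate numbers pair the libraries cannot be told, since no pairs with different numbers were set beside those with the same number. Of 30 pairs with the same number, 8 had correlated deviations above 0.1, with a range of −0.40 to 0.54. With the replicate block 13 members passed in ΔfneΔrbp9 (16.5%, against 23.6% of all genes), 1 in Δfne (1.27%, against 17.8%) and 8 in Δrbp9 (10.1%, against 20.8%).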
